A study of Mus musculus with 8 samples.

Results

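Described here are 10 genes grouped under conventional dendritic cells, leukocytes that take up material from dying cells and present its antigens to T cells. They were followed in malignant tumours of the peripheral nerve sheath from NPcis mice, a strain that carries mutant Nf1 and Trp53 on the same chromosome. They are Flt3, Clec9a, Xcr1, Batf3, Clec10a, Cd209a, Wdfy4, Itgae, Naaa and Snx22, 10 of the 19938 genes measured. Some, such as Clec10a and Itgae, are also made by other leukocytes. Flt3 was chosen by its measured difference between arrays with and without the MEK inhibitor PD-0325901, and the other 9 were joined to it as dendritic cell genes with those results known. For this reason the differences that involve PD-0325901 are given for the 10 genes as a description, with no test. Where a gene had several probe sets, the one with the greatest average signal was read.

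Expression was measured on 8 Affymetrix arrays, 2 in each of 4 groups. Tumours of the combination group had received rapamycin, an mTORC1 inhibitor, at 5 mg/kg into the peritoneum, and PD-0325901 by oral gavage, 1.5 mg/kg in each of 2 doses a day. The other groups received PD-0325901 alone, rapamycin alone or vehicle, and treatment lasted 14 hours in all groups. All groups share the NPcis background, the RNA is that of primary tumours for which no label states a sorting of cells, and no label says that arrays of a group came from separate animals, so the p-values measure the spread between these arrays, which may be technical. Arrays correlated over probe sets at 0.961 to 0.986 within groups and 0.963 to 0.985 between groups, and the number of arrays limits every value. PD-0325901 array 2 stood apart by its erythroid markers, whose mean was 1.84 log2 above their average over the arrays, against -0.54 to 0.00 on the other 7 arrays.  Genes switched on by MEK-ERK signalling, such as Dusp5 and Spred1, were at a median of -0.36 log2 with against without PD-0325901, with 1 of 13 above 0. Rapamycin array 1 stood apart by its mast cell markers, whose mean was 1.18 log2 there against -0.44 to 0.36 on the other 7 arrays. Schwann cell markers had a median difference of 0.02 with PD-0325901 and 6 of 8 were above 0. Among them Sox10, a transcription factor of the lineage, averaged 7.99 log2 on the 4 arrays with PD-0325901 and 7.98 on the 4 without it, while Gap43, named after its values were seen, averaged 9.35 and 8.21 (1.14, SE 0.44), and Cdh19, also named afterwards, 6.68 and 5.68 (1.01, SE 0.41).

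Conventional dendritic cells arise from bone marrow precursors under the cytokine Flt3 ligand, which signals through the receptor tyrosine kinase Flt3. They form a pair of lineages. The type 1 lineage depends on the transcription factors Irf8 and Batf3 and excels at presenting engulfed antigen to CD8 T cells, while the type 2 lineage depends more on Irf4 and presents mainly to CD4 T cells. In tumours the type 1 cells are known for carrying tumour antigen to T cells and for being rare.

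All 10 genes had a higher mean with PD-0325901 than without it. The differences, as the mean of PD-0325901 against vehicle and of the combination against rapamycin, ran from 0.17 to 1.24 log2 with a median of 0.53, against a median of -0.01 over all genes, of which 46.0% were above 0. For 4 genes, Flt3, Xcr1, Batf3 and Snx22, all 4 arrays with PD-0325901 lay above all 4 without it. Over all genes 3.34% did so, and 2.39% lay the opposite way, a pattern shown by 0 of the 10. Since Flt3 was chosen by this contrast, nothing is read from these shares. The same 4 genes lay above when PD-0325901 array 2 was left out, with 4.48% of all genes. The count was 7 of 10 without rapamycin array 1, then with Clec9a, Clec10a and Naaa added, and with 6.09% of all genes.

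**Figure D1:**
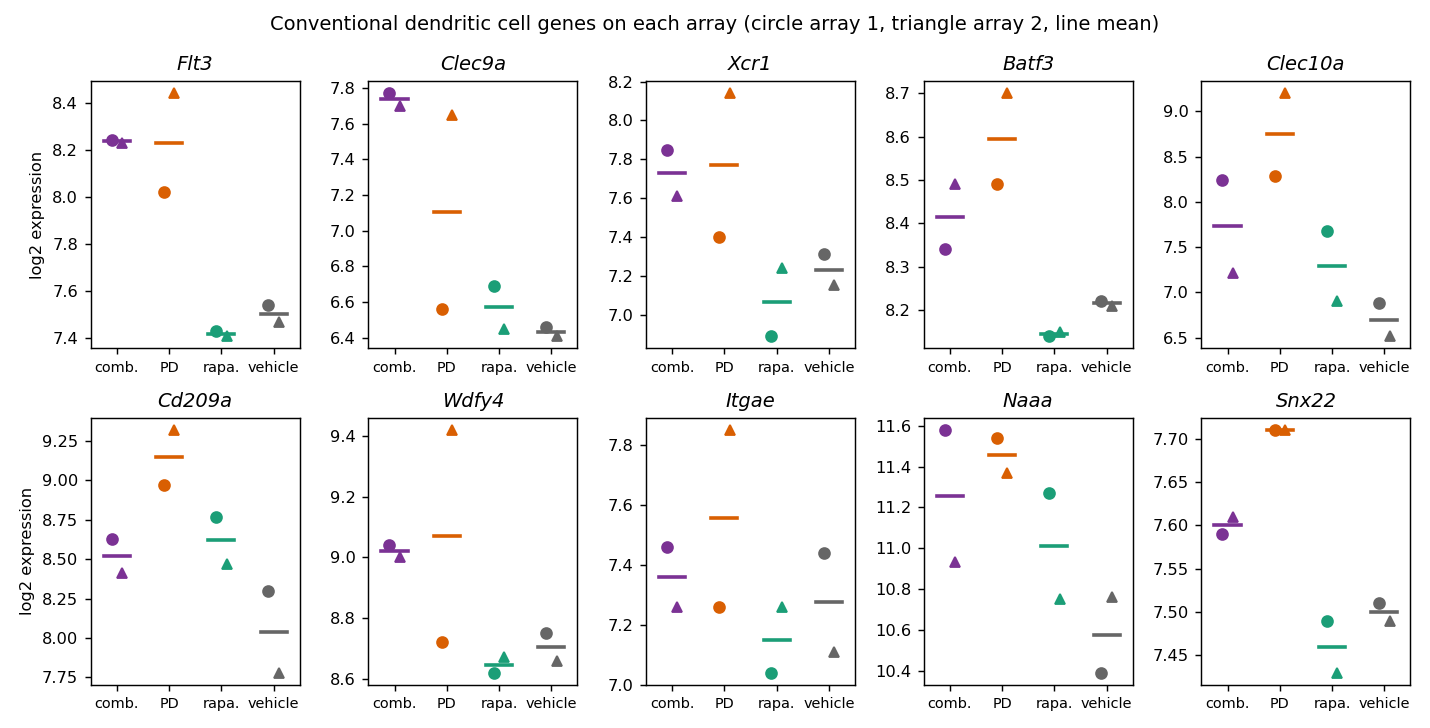
Log2 expression of the 10 genes (vertical axes, 1 panel per gene, scales differ) on the 2 arrays of the combination (comb.), PD-0325901 (PD), rapamycin (rapa.) and vehicle groups; circles are array 1, triangles array 2, lines the group mean. Flt3, Xcr1, Batf3 and Snx22 have all 4 arrays with PD-0325901 above the other 4. All genes but Flt3 and Clec9a have their highest group mean with PD-0325901 alone.

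Flt3, the receptor whose ligand drives dendritic cell development, showed 8.24 and 8.23 log2 on the combination arrays, 8.02 and 8.44 on the PD-0325901 arrays, 7.43 and 7.41 on the rapamycin arrays and 7.54 and 7.47 on the vehicle arrays. The arrays fell into a high set of 4 with PD-0325901 and a low set of 4 without it, separated by 0.47. The group means were 8.23 ± 0.01 in the combination, 8.23 ± 0.30 with PD-0325901, 7.42 ± 0.02 with rapamycin and 7.51 ± 0.05 with vehicle (SD, n = 2 each). In the order of levels, the combination and PD-0325901 overlapped at the top, while rapamycin lay below vehicle with no overlap. The difference was 0.72 (SE 0.15) for PD-0325901 against vehicle and 0.81 (SE 0.15) for the combination against rapamycin. As a mean of both it was 0.77 (SE 0.11), and it stayed within 0.66 to 0.88 when any 1 array was left out.

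Batf3, the AP-1 family transcription factor needed for the type 1 lineage, had 8.34 and 8.49 log2 in the combination, 8.49 and 8.70 with PD-0325901, 8.14 and 8.15 with rapamycin and 8.22 and 8.21 with vehicle. Its lowest array with PD-0325901 lay 0.12 above its highest array without it. The mean difference was small, 0.32 (SE 0.08), and ranged from 0.27 to 0.37 with single arrays left out. Its order ran from PD-0325901 through the combination and vehicle to rapamycin, with no overlap between vehicle and rapamycin and a gap of less than 0.01 between PD-0325901 and the combination.

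Xcr1, the receptor for the chemokine Xcl1 made by NK and CD8 T cells, had 7.85 and 7.61 log2 in the combination, 7.40 and 8.14 with PD-0325901, 6.89 and 7.24 with rapamycin and 7.31 and 7.15 with vehicle. The 4 arrays with PD-0325901 were the highest, by a margin of 0.09. The difference was 0.60 (SE 0.19) and became 0.42 without PD-0325901 array 2 and 0.79 without PD-0325901 array 1. PD-0325901 and the combination overlapped, as did vehicle and rapamycin.

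Clec9a, a C-type lectin that detects actin filaments exposed by dead cells, was at 7.77 and 7.70 log2 in the combination, 6.56 and 7.65 with PD-0325901, 6.69 and 6.45 with rapamycin and 6.46 and 6.41 with vehicle. It was high on 3 of the 4 arrays with PD-0325901, and PD-0325901 array 1 lay among the arrays without the drug. It was the 1 gene of the set for which both combination arrays lay above both PD-0325901 arrays. The difference was 0.67 (SE 0.34) for PD-0325901 against vehicle and 1.17 (SE 0.34) for the combination against rapamycin. Their mean was 0.92 (SE 0.24), with a range of 0.65 to 1.19 when single arrays were left out. Rapamycin and vehicle overlapped at the bottom of the order.

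Wdfy4, a BEACH domain protein that type 1 cells need for cross-presentation, had 9.04 and 9.0 log2 in the combination, 8.72 and 9.42 with PD-0325901, 8.62 and 8.67 with rapamycin and 8.75 and 8.66 with vehicle. The pattern was that of Clec9a, with PD-0325901 array 1 among the low arrays and the other 3 above all arrays without the drug. The difference of 0.37 (SE 0.16) fell to 0.20 without PD-0325901 array 2. Wdfy4 was the 1 gene with a second probe set, which had 8.59 and 8.59 in the combination, 8.42 and 8.99 with PD-0325901, 8.32 and 8.42 with rapamycin and 8.58 and 8.48 with vehicle. There too PD-0325901 array 2 was the highest and PD-0325901 array 1 lay among the arrays without the drug, and the combination exceeded vehicle array 1 by only about 0.01.

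Snx22, a sorting nexin listed among genes of mouse type 1 cells, showed 7.59 and 7.61 log2 in the combination, 7.71 and 7.71 with PD-0325901, 7.49 and 7.43 with rapamycin and 7.51 and 7.49 with vehicle. The groups with the drug did not overlap those without it, although the difference was the smallest of the 10 genes, 0.17 (SE 0.06). Naaa, a lysosomal amidase that degrades palmitoylethanolamide, had 11.58 and 10.93 in the combination, 11.54 and 11.37 with PD-0325901, 11.27 and 10.75 with rapamycin and 10.39 and 10.76 with vehicle. Both PD-0325901 arrays exceeded both vehicle arrays, by a mean of 0.88 (SE 0.28), but the combination overlapped rapamycin, with a difference of 0.24 (SE 0.28). Itgae, the integrin chain CD103 that binds E-cadherin and is also made by tissue-resident T cells, had 7.46 and 7.26 in the combination, 7.26 and 7.85 with PD-0325901, 7.04 and 7.26 with rapamycin and 7.44 and 7.11 with vehicle. Its arrays with the drug overlapped those without it, although both combination arrays lay above both rapamycin arrays by a margin of about 0.01, and its difference of 0.24 (SE 0.16) was 0.10 without PD-0325901 array 2 and 0.39 without PD-0325901 array 1.

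Clec10a, a galactose-binding lectin of type 2 dendritic cells and macrophages, had 8.24 and 7.22 log2 in the combination, 8.29 and 9.20 with PD-0325901, 7.68 and 6.91 with rapamycin and 6.88 and 6.52 with vehicle. It had the largest difference of the 10 genes for PD-0325901 against vehicle, 2.05 (SE 0.47), and 0.43 (SE 0.47) for the combination against rapamycin, where the arrays overlapped. Cd209a, a mouse relative of DC-SIGN found on type 2 and monocyte-derived dendritic cells, had 8.63 and 8.41 in the combination, 8.97 and 9.32 with PD-0325901, 8.77 and 8.47 with rapamycin and 8.30 and 7.78 with vehicle. PD-0325901 stood above vehicle by 1.11 (SE 0.23), while the combination against rapamycin gave -0.10 (SE 0.23). For both lectins PD-0325901 was the highest group and vehicle the lowest, with the combination and rapamycin overlapping between them.

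**Figure D2:**
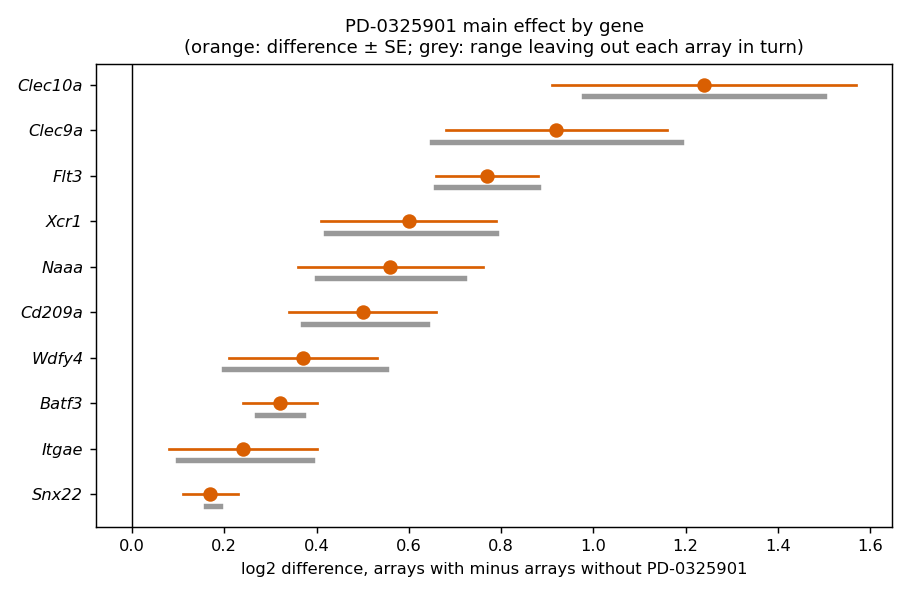
Difference in log2 expression between arrays with and without PD-0325901 (horizontal axis) for each gene, as the mean of PD-0325901 against vehicle and the combination against rapamycin; orange points and lines are the difference ± SE, grey bars the range when each of the 8 arrays is left out in turn. All points and grey bars lie above 0, from Snx22 (0.17) to Clec10a (1.24), and those of Wdfy4 and Itgae reach down to 0.20 and 0.10.

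Set beside each other, 8 of the 10 genes had both PD-0325901 arrays above both vehicle arrays (17.6% of all genes). For the combination against rapamycin it was 7 of 10 (16.0% of all genes), and for the combination against vehicle 9 of 10 (17.9% of all genes). These comparisons share the contrast that chose Flt3 and, in part, the same arrays, so the counts are a description. The 3 genes that overlapped for the combination against rapamycin were Clec10a, Cd209a and Naaa. The 2 that overlapped for PD-0325901 against vehicle were Wdfy4 and Itgae, both low on PD-0325901 array 1. Several of the genes were also below the median level of all genes. Clec9a stood at the 24.5th percentile of mean level over all genes, Itgae at the 32.2nd and Xcr1 at the 34.4th. Snx22 was at the 36.8th, Clec10a at the 37.9th and Flt3 at the 42.5th. Batf3, Cd209a and Wdfy4 stood at the 51.6th, 55.8th and 60.9th, and Naaa far higher, at the 95.4th. The deposited table gives no detection call, so how far the genes below the median level lie above background is not known.

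The effect of rapamycin was tested with limma over all 19938 genes, but it is not wholly free of the choice of genes. A contrast of 4 arrays with against 4 without PD-0325901, by which Flt3 was chosen, favours genes that vary little with rapamycin. The other genes were joined to it with earlier results known. Rapamycin gave small differences of both signs, with a median of -0.07 over the 10 genes and -0.01 over all genes, 8 of 10 below 0. Without PD-0325901 array 2 the median was 0.07 and 7 of 10 were above 0. As a main effect, 0 of the 10 passed an adjusted p of 0.05 and 0 an unadjusted p of 0.05, with 0.0% and 5.55% of all genes (1107 unadjusted). Flt3 differed by -0.04 (SE 0.11, limma adjusted p = 0.9652). Clec9a had the largest difference, 0.38 (SE 0.24, limma adjusted p = 0.9091), which was 0.11 without PD-0325901 array 1 and 0.66 without PD-0325901 array 2. The arrays with rapamycin overlapped those without it for all 10 genes, while over all genes 1.41% had all 4 rapamycin arrays above and 1.94% all 4 below the others.

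The lectins Clec10a and Cd209a stood out by opposite differences with rapamycin. In rapamycin against vehicle Clec10a was higher by 0.59 (SE 0.47) and Cd209a by 0.58 (SE 0.23), and both rapamycin arrays lay above both vehicle arrays. In the combination against PD-0325901, Clec10a had a difference of -1.02 (SE 0.47) and Cd209a of -0.62 (SE 0.23), and both combination arrays lay below both PD-0325901 arrays. Batf3 and Snx22 also had both combination arrays below both PD-0325901 arrays. The shares of all genes with these separations by rapamycin were not counted. In the comparisons with PD-0325901 given above, 2 arrays lay above 2 others for 16.0% to 17.9% of all genes, so nothing is read from these separations. The interaction of the drugs, which is the rapamycin difference with PD-0325901 minus that without it, was -1.61 (SE 0.67) for Clec10a and -1.21 (SE 0.32) for Cd209a. Neither passed after adjustment over all genes (limma adjusted p = 0.9999 for each). Before adjustment, Cd209a was the 1 gene of the 10 to pass the 0.05 threshold in limma for the interaction, with 2.18% of all genes (434). It was also the 1 gene to do so for rapamycin against vehicle, with 4.93% of all genes (982), and for the combination against PD-0325901, with 3.0% of all genes (599). After adjustment 0 of the 10 and 0.0% of all genes passed in each of these comparisons. Naaa had an interaction of -0.64 (SE 0.40), and the other 7 genes lay between -0.11 and 0.50.

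**Figure D3:**
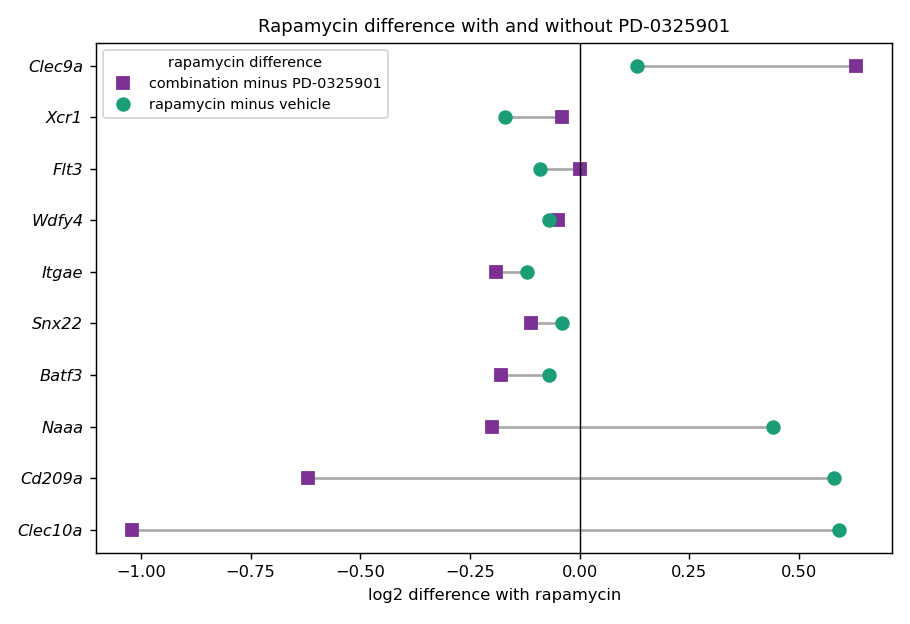
Log2 difference with rapamycin (horizontal axis) for each gene, in the presence of PD-0325901 (purple squares, combination minus PD-0325901) and in its absence (green circles, rapamycin minus vehicle); grey lines join the values of a gene. Clec10a (-1.02 and 0.59), Cd209a (-0.62 and 0.58) and Naaa (-0.20 and 0.44) change sign between the 2 settings, and Clec9a is the gene with the largest positive difference in the presence of PD-0325901 (0.63).

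The genes varied together from array to array. Over the 8 arrays all 45 pairs of genes had a positive Pearson correlation, from 0.21 to 0.95 with a median of 0.70. These values share the treatment groups and the arrays and are a description. Closest were Xcr1 with Wdfy4 (0.95), Batf3 with Snx22 (0.94) and Clec10a with Cd209a (0.92), and farthest apart were Itgae and Naaa (0.21). Between the 2 PD-0325901 arrays, array 2 was the higher for 9 of the 10 genes, by a median of 0.51 and by up to 1.09 for Clec9a, while 44.8% of all genes were higher on array 2. Naaa was the exception, at -0.17. In the combination group 8 of the 10 were higher on array 1, with a median of -0.13 for array 2 minus array 1 and the largest gap, -1.02, for Clec10a. With the group means taken out, the median over the 45 pairs was 0.55, with 37 above 0. Flt3 then followed Wdfy4 (0.99), Clec9a (0.98), Itgae (0.86) and Xcr1 (0.85) most closely, and Naaa least (-0.19). Within groups Flt3 differed mainly between the PD-0325901 arrays (8.02 and 8.44), so its values here rest largely on that pair. Array 2 of the pair is the one that stood apart by its erythroid markers.

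The promoter windows of RefSeq (build GRCm38.p6) are 300 bases that end shortly after the annotated start. They were searched, as a description, for short motifs of factors that act in dendritic cells. The motifs were GAANNGAAA (an interferon response core bound by IRF factors), GGAANNGAA (a composite of ETS and IRF factors), TGANTCA (AP-1, the family of Batf3) and GAGGAAGT (the ETS factor PU.1), on both strands. Of the 10 genes 8 had an entry, all but Clec10a and Itgae, with 9 windows. Only Cd209a held any of them: GGAANNGAA at position -152 and, on the opposite strand, overlapping copies of GAANNGAAA at -9 and GGAANNGAA at -8, counted from the start site to the left end of the match. Over all 32851 windows the shares were 7.5% for GAANNGAAA, 8.2% for GGAANNGAA, 7.8% for TGANTCA and 3.2% for GAGGAAGT. A match is a description of letters and says nothing of binding. The windows of Cd209a, Flt3 and Clec9a are shown as the one with matches and the leading members without. All lie on the strand of the gene, capitals mark the matches, and their places are chr8:3748935-3749234 (minus strand), chr5:147400440-147400739 (minus strand) and chr6:129408612-129408911 (plus strand).
Cd209a: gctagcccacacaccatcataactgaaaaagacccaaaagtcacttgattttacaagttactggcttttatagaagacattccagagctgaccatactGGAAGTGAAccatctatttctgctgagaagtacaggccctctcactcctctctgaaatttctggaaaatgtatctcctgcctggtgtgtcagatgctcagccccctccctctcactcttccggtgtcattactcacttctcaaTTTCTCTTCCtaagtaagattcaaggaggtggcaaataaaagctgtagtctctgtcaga
Flt3: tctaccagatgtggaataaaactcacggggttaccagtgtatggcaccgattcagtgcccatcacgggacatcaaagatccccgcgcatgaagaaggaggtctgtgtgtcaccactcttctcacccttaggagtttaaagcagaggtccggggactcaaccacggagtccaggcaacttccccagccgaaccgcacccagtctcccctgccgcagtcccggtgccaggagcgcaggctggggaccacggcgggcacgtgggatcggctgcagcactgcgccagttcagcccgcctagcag
Clec9a: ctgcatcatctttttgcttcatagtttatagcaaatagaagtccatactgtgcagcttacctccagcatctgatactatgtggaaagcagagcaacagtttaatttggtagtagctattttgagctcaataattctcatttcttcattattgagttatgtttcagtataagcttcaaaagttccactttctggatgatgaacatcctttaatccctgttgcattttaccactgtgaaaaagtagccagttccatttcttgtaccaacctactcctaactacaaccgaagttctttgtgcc

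Other genes of dendritic cell biology, from lists written for this purpose, moved unevenly with PD-0325901. In the fit of 4 group means 0 genes passed an adjusted p of 0.05 for the PD-0325901 main effect (0.0% of all genes, 1915 unadjusted), so differences are given as values. Of 16 transcription factors of the lineage 10 were above 0, with a median of 0.16, and for 4 the arrays with PD-0325901 all lay above those without. Irf8, the factor of type 1 and plasmacytoid cells, was at 10.63 and 10.59 log2 in the combination, 10.46 and 10.81 with PD-0325901, 9.95 and 9.89 with rapamycin and 10.02 and 9.73 with vehicle, a difference of 0.73 (SE 0.11). Ikzf1 (0.63, SE 0.12), Zeb2 (0.63, SE 0.11) and Cebpa (0.39, SE 0.13), which also act in other leukocytes, shared this separation. Zbtb46, among leukocytes the factor most restricted to conventional dendritic cells, did not share it. It was named here after its values were seen and averaged 8.29 with and 8.35 without PD-0325901 (-0.06, SE 0.07). Since no sorting of cells is stated, its values need not come from leukocytes alone. Itgax, the integrin CD11c and also named after its values were seen, averaged 8.11 and 8.62 (-0.51, SE 0.39).

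Among genes of the cytokines that act on these cells, 9 of 16 were above 0, with a median of 0.06. Flt3l, the ligand of Flt3, had 8.85 and 9.24 log2 in the combination, 8.68 and 9.03 with PD-0325901, 8.60 and 8.64 with rapamycin and 8.28 and 8.39 with vehicle. All arrays with PD-0325901 were higher than those without, by a margin of 0.04 and a mean of 0.47 (SE 0.13, limma adjusted p = 0.3201). Socs2, a suppressor of cytokine signalling, was lower on all 4 arrays, by -0.69 (SE 0.15).

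Further type 1 genes (11 of 13 above 0, median 0.23) and type 2 genes (10 of 14 above 0, median 0.26) had smaller median differences than the 10 genes; these medians were not tested against each other. Cd24a, a surface sialoglycoprotein, differed by 1.21 (SE 0.37), the adaptor Clnk by 0.36 (SE 0.14) and Hepacam2 by 0.36 (SE 0.11), each with no overlap. In the type 2 list Clec4a4, the lectin DCIR2, did so too, with 0.32 (SE 0.10). Other type 1 genes overlapped, among them Cadm1 (-0.74, SE 0.34), Tlr3 (0.09, SE 0.10) and Ly75 (0.13, SE 0.38), named after their values were seen. Among genes of activated and migratory cells 12 of 16 were above 0 (median 0.26). The costimulatory receptor Cd40 (0.56, SE 0.15) and the cytokine Il15 (0.94, SE 0.24) were higher on all 4 arrays with PD-0325901, while Tnfsf9 (-0.38, SE 0.09) and the actin bundler Fscn1 (-0.35, SE 0.13; named after its values were seen) were lower on all 4. Of 10 measured attractants and their receptors 7 were above 0, with the chemokines Ccl3 (0.99, SE 0.35) and Ccl5 (1.16, SE 0.35) and the receptor Ccr2 (1.31, SE 0.24) separated.

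Several leukocyte lists moved with PD-0325901 as well, and their part in the result was not tested. T and NK cell markers had a median difference of 0.69 (14 of 14 above 0, 3 with no overlap). Their mean centred level was 0.10 and 0.88 in the combination and -0.11 and 0.56 with PD-0325901. It was -0.56 and -0.46 with rapamycin and -0.03 and -0.37 with vehicle. Macrophage markers had a median of 0.48 (14 of 14) and monocyte and neutrophil markers of 0.19 (10 of 13). MHC class II genes, which dendritic cells also express, had a median of 0.60 (10 of 10). For genes of all leukocytes such as Ptprc and Cd53 it was 0.41 (10 of 10). By array, the mean centred level of the leukocyte list was 0.16 and 0.17 in the combination, 0.24 and 0.36 with PD-0325901, -0.38 and -0.27 with rapamycin and 0.09 and -0.37 with vehicle. The same mean over the 10 genes was 0.31 and 0.08 in the combination, 0.13 and 0.62 with PD-0325901, -0.16 and -0.29 with rapamycin and -0.28 and -0.41 with vehicle. With the leukocyte level subtracted from every gene, 0 of the 10 kept all arrays with PD-0325901 above all without, against 0.18% of all genes. The difference of Flt3 was then 0.30, that of Clec9a 0.45 and that of Clec10a 0.77, while Batf3, Wdfy4, Itgae and Snx22 were at -0.15, -0.09, -0.22 and -0.29. In whole tumours, more cells of a type and more RNA per cell cannot be told apart.

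**Figure D4:**
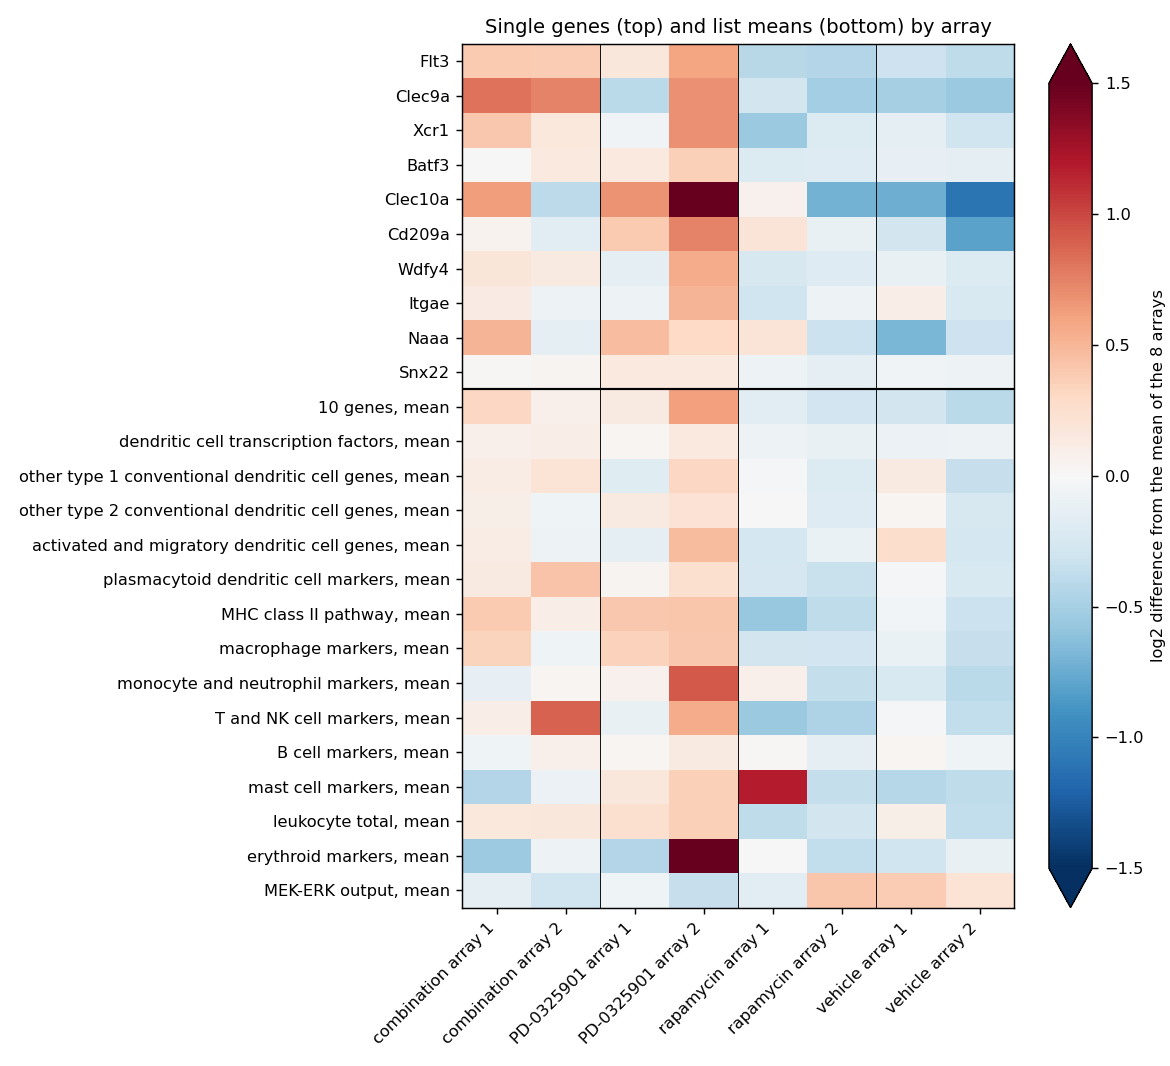
Log2 difference of each array (columns, by group) from the mean of the 8 arrays, for the 10 genes (upper rows) and for the mean of each list (lower rows); red is above and blue below the mean, and the scale ends at 1.5 in either direction. The arrays with PD-0325901 are mostly red for the 10 genes and for leukocyte lists, and PD-0325901 array 2 is also the highest for erythroid (1.84) and for monocyte and neutrophil markers (0.92).

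Plasmacytoid markers, the nearest other dendritic lineage, had a median of 0.28 (11 of 13 above 0). Tcf4 (-0.10, SE 0.13), Pacsin1 (-0.01, SE 0.08) and Cox6a2 (0.05, SE 0.19), named after their values were seen, were near 0. Siglech, also named afterwards, differed by 0.54 (SE 0.08) and Tlr9 by 0.92 (SE 0.14). Of the 13 markers 5 had all 4 arrays with PD-0325901 above all 4 without it. Cd300c2 differed by 0.96 (SE 0.07), Tlr7 by 1.0 (SE 0.11), Pld4 by 0.78 (SE 0.08) and the class II regulator Ciita by 1.06 (SE 0.12), all placed in their lists with these results known. Each had a limma adjusted p of 0.1411 in the fit of 4 group means. A fit of the 4 arrays with against the 4 without PD-0325901 called 22 genes (0.11% of all genes), these 4 and Flt3 among them, but Flt3 was chosen by that contrast and nothing is read from its call. The calls depended on single arrays: in place of 22 genes, that fit called 65 with rapamycin array 1 left out and 0 to 7 with any other array left out, 0 for each of PD-0325901 array 2 and combination array 1. Under rapamycin, 10 of 10 class II genes were below 0 (median -0.20), as were 10 of 10 genes of the leukocyte list (median -0.12) and 12 of 14 macrophage markers (median -0.12), and over all genes 46.2% were above 0. H2-Aa was at -0.48 (SE 0.09, limma adjusted p = 0.7523) with rapamycin and at 0.90 (SE 0.09) with PD-0325901. B cell markers (median -0.02), mast cell markers (-0.03) and Langerhans and epidermal markers (-0.04) had medians near 0 with PD-0325901, and the Langerhans cell lectin Cd207 averaged 6.64 with and 6.79 without PD-0325901. T and NK cell markers were highest on combination array 2 (0.88), an array on which the 10 genes were at 0.08.

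The genes most like Flt3 over the 8 arrays, among all genes with a name, were Pkib, an inhibitor of protein kinase A (Pearson correlation 0.996), the RNA receptor Tlr7 (0.991), Gmfg (0.984), Irf8 (0.981), Cyp4f18 (0.978), Arhgap30 (0.972), the sialic acid lectin Siglec1 (0.972) and Ikzf1 (0.970). Pkib differed by 0.37 (SE 0.07) with PD-0325901 and Siglec1, a macrophage receptor, by 0.92 (SE 0.17). Most like the mean of the other 9 genes were the motor protein Myo5a (0.980), Fnbp4 (0.973), the semaphorin Sema4a (0.962), Pik3r6 (0.961), Epor (0.959), Dse (0.959), Fkbp15 (0.958) and the inhibitory receptor Cd200r1 (0.958). Sema4a differed by 1.05 (SE 0.25) and Cd200r1 by 0.94 (SE 0.16). The lists share no gene, and each correlation rests on 8 arrays in 4 groups.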

How the data were processed

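RNA of 8 tumour samples was amplified (NuGEN Applause WT-Amp ST) and biotin-labelled, per the labels' protocols. The authors deposited 1 log2 value per probe set and array (3.36 to 14.36); how they were normalized and with which software is not given in the sources used here. That the values are log2 was read from their range. Groups come from the sample titles. Of 35512 probe sets 21789 are annotated to 1 gene symbol, and the probe set of highest mean stood for each of 19938 genes, with no filter on low values. limma 3.58.1 in R 4.3.3 (lmFit, eBayes, two-sided) was fitted across all genes on 4 group means, and on 2 groups for PD-0325901, after a check on simulated data. P-values were adjusted by Benjamini-Hochberg over all genes (threshold 0.05). Differences are on the log2 scale, with limma's standard error (SE). The members and lists were chosen with earlier results of these data known. Genes named were all members, separated list genes (up to 4 per list) and the 8 of closest pattern; others are said to be named afterwards. The alternatives tried were normalization, probe set choice, a level filter, the variance prior, a replicate block, the threshold and leaving out arrays. Those for separated members, the leukocyte subtraction and those for single members other than Flt3 were chosen after seeing the data.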

Additional observations from a re-analysis of the deposited data

Results flagged for a closer look

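Clec10a and Cd209a moved in opposite directions with rapamycin depending on PD-0325901: every rapamycin array lay above every vehicle array, and every combination array below every PD-0325901 array. The second of these separations was also seen for Batf3 and Snx22, and the shares of all genes with either were not counted. In the comparisons with PD-0325901, 2 arrays lay above 2 others for 16.0% to 17.9% of all genes, so nothing is read from the separations alone. The interaction was -1.61 (SE 0.67) for Clec10a and -1.21 (SE 0.32) for Cd209a, with a limma adjusted p of 0.9999 for each, so the difference between the settings did not pass over all genes.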

How the results depend on the processing

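The median difference of the 10 genes with PD-0325901 was 0.42 to 0.61 when single arrays were left out. Their rapamycin median was then -0.16 to 0.07, above 0 only without PD-0325901 array 2. The PD-0325901 median was 0.53 to 0.55 under the other settings that kept all 10 genes. The filter to genes above the median level kept only 4 of the 10, without Flt3, and their median was 0.44. The difference of Flt3 was 0.66 to 0.88 without single arrays. No paired design was found: the gaps between arrays 1 and 2 correlated over genes between groups at -0.278 to 0.183. With the replicate block the median was 0.53, and the fit of 2 groups called 0 genes in place of 22. That fit called 12 genes above the median level, 6 with a variance trend and robust prior, 109 at a threshold of 0.1 and 0 to 65 without single arrays (65 without rapamycin array 1). The other counts of genes, 0 each, were 0 to 2 for the rapamycin main effect and the interaction, 0 to 8 for the PD-0325901 main effect (the highest without vehicle array 2 in each case) and 0 to 15 for rapamycin against vehicle (15 without rapamycin array 2). The count of separated members was 4 to 7 without single arrays (4.48% to 6.09% of all genes) and 0 with the leukocyte level subtracted (0.18% of all genes). The causes were not tested.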
